A study of Mus musculus with 6 samples.

Results

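The SRF/MRTF contractile and actin cytoskeleton genes are 38 named genes whose transcription is controlled by serum response factor (SRF) or whose proteins build, cross-link or anchor actin filaments. They were chosen by name: a gene counted as measured where the platform annotation maps at least 1 probe set to it alone. This held for 36 of the 38 genes, with 74 of the 22626 probe sets tested, among 12393 genes measured in all. Myh10 and Filip1l had no such probe set, so their levels were not analysed here.

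SRF is a transcription factor that binds a short DNA element called the CArG box. Its coactivators of the MRTF family, of which Mkl1 (listed as Mrtfa in the annotation) encodes MRTF-A, bind monomeric actin in the cytoplasm and enter the nucleus when actin is drawn into filaments. In fibroblasts this circuit links the state of the cytoskeleton to the supply of its parts, and contractile proteins best known from smooth muscle mark fibroblasts that have become contractile. SRF took its name from the response of its targets to serum.

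The cells are a mouse line labelled PPP3R1, the name of the calcineurin B regulatory subunit, and the sources used here do not say what was altered in the line. Biotin-labelled material from total RNA was hybridised to 6 Affymetrix arrays, 3 from cells starved for 6 h and 3 controls. By the sample titles and the series design the controls are the same line in normal medium, but the growth and treatment protocols speak of wild-type mouse embryonic fibroblasts (MEFs) instead. The groups follow the titles here, and if the protocols are right, every difference below would be between lines as well as between media. The sample titles call the replicates biological. The sources used here give neither what the starvation medium lacked nor whether replicates were grown as separate cultures. The p-values therefore cover only the spread among these 6 samples, and that this spread is biological rests on the titles alone.

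Values are log2 levels as deposited, made by RMA, and a change is the starved mean minus the control mean with its standard error from limma, n = 3 per group. A gene is said to rise or fall where limma's adjusted p over all 22626 probe sets is under 0.05, and the probe set with the highest mean stands for the gene. A level under 5 (log2) is called dim. Levels of different probe sets are not comparable with each other. Array medians lay between 6.74 and 6.78, arrays of the same group correlated at 0.998 and arrays of different groups at 0.986 to 0.988 across probe sets. The difference between the 3 prime and 5 prime control probe sets of Actb, a measure of RNA integrity, was 0.05 ± 0.02 (SD) in both groups (exact two-sided permutation p = 0.7; the smallest possible is 0.1). For Gapdh it was -0.05 ± 0.05 in control and -0.13 ± 0.02 (SD) in starved arrays, which did not overlap (exact two-sided permutation p = 0.1). The part of RNA integrity in the changes below was not tested. Of 14 fibroblast markers the median control level was 11.62, and only Thy1 was dim. The smooth muscle myosin gene Myh11 (4.38 in control and 4.23 in starved cells) and Myocd, the muscle-restricted SRF coactivator (4.06 and 4.05), were dim in both groups. They belong to a list of 9 pericyte and smooth muscle markers, of which 4 were dim in both groups. The others were not: Smtn (7.16 and 7.71), Cspg4 (6.94 and 7.51), Notch3 (7.16 and 7.58), Rgs5 (6.01 and 6.46) and Des (6.63 and 6.65). In a bulk sample, more cells with a transcript and more transcript per cell cannot be told apart.

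Starved cells had higher levels of many of the contractile genes while Srf itself was lower. Of the 36 genes measured, 18 rose and 4 fell, which is 50.0% and 11.1%, against 20.8% and 20.1% of all 12393 genes. In either direction that is 61.1% of the 36 and 40.8% of all genes. The median change of the 36 was 0.22, against -0.01 over all genes. The rises were largest in genes of smooth muscle type, led by Actg2 (6.09-fold), Tagln (3.71-fold) and Myl9 (2.04-fold), whereas the cytoplasmic actins Actb and Actg1 differed by less than 0.1 and did not pass. The exceptions in the smooth muscle group were Mylk, which fell 2.36-fold, and Lmod1. In 29 of the 36 genes the 3 starved arrays lay wholly above or wholly below the 3 controls, and the same held for 52.5% of all genes. The 9 genes that were called and changed by at least 0.5 were 7 of smooth muscle type, with Tagln2 and Pdlim7, and 14.4% of all genes met that rule. A change of at least 1 was called for 4 of the 36 (Actg2, Tagln and Myl9 higher and Mylk lower), against 3.21% of all genes in either direction and 1.71% higher.

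**Figure D1:**
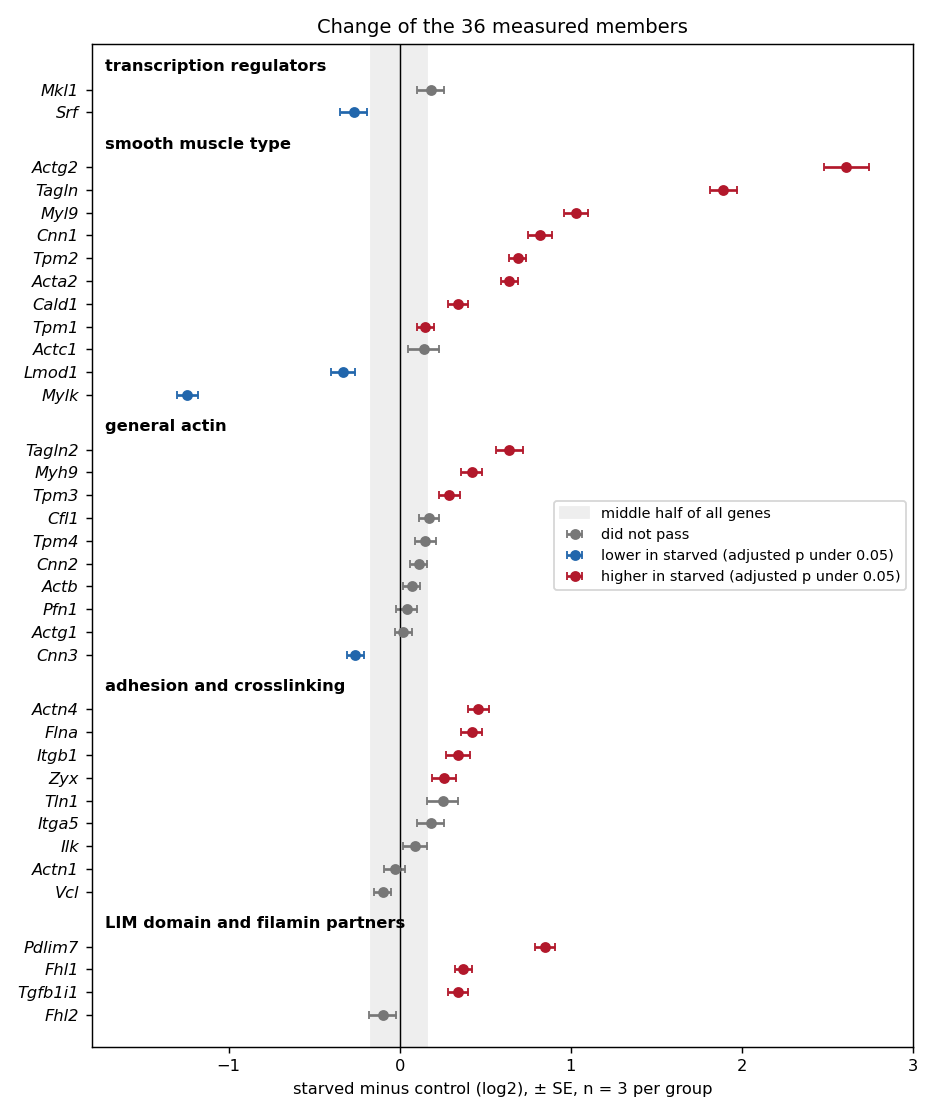
Change of each of the 36 measured genes (starved minus control, log2, horizontal axis) with its standard error, n = 3 per group, by role; red and blue mark genes that passed an adjusted p of 0.05 and the grey band holds the middle 50% of all genes. The smooth muscle group spreads from -1.24 (Mylk) to 2.61 (Actg2), while the general actin group lies between -0.26 and 0.64.

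Srf was measured at 7.55, 7.51 and 7.76 in control replicates 1, 2 and 3 and at 7.29, 7.30 and 7.40 in starved replicates 1, 2 and 3. All starved arrays were below all controls, with a fall of 0.27 ± 0.08 (adjusted p = 0.0255). This call was lost without control replicate 3 (adjusted p = 0.0540), without starved replicate 1 (0.0781), without starved replicate 2 (0.0743) and without moderation (0.0820), within a range of 0.000484 to 0.0820 over all alternatives. The second Srf probe set fell further, from 7.38 ± 0.10 to 6.74 ± 0.05 (SD), a change of -0.64 ± 0.07 (adjusted p = 0.000185). The difference between these changes was -0.37, given with no test because the pair was picked after its values were seen. Mkl1 was at 8.55, 8.35 and 8.65 in control and 8.75, 8.64 and 8.69 in starved cells. Its groups overlapped, and the difference of 0.18 ± 0.08 did not pass (adjusted p = 0.140).

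The CArG box is the letters CC, then 6 letters that are each A or T, then GG, and it reads the same way on both strands. RefSeq promoter windows on GRCm38.p6, each running from 250 bases before to 50 bases after a start site, were held for 34 of the 38 genes. Not among them were Actg2, Tagln, Actb and Tgfb1i1. A CArG box stood in the window of 9 of these 34 genes (26.5%), against 1.81% of 27025 genes with a window. The 38 genes were listed partly for being known SRF targets, so that share describes the list and is no independent evidence. With 1 other letter allowed among the A and T letters, the shares were 41.2% and 11.3%.

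The stretches around the box in measured genes are shown 5′ to 3′ on the strand of the gene, ending at or before the start site, with CArG boxes in capitals. Srf comes first because its own promoter carries a pair of them. Myl9 and Fhl1 are the genes with a box that rose, and Actg1, Cnn2, Vcl, Actc1 and both Fhl2 starts are those with a box that did not pass.
Srf, chr17:46556185-46556274, minus strand: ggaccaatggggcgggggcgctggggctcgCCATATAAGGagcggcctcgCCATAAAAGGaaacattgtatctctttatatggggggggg
Myl9, chr2:156775273-156775362, plus strand: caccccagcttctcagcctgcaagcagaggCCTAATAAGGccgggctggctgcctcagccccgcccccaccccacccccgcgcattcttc
Fhl1, chrX:56779551-56779640, plus strand: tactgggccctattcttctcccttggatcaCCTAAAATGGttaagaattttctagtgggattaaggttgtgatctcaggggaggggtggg
Actg1, chr11:120348526-120348615, minus strand: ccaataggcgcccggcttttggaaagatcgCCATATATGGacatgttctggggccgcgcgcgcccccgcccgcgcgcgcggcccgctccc
Cnn2, chr10:79988514-79988599, plus strand: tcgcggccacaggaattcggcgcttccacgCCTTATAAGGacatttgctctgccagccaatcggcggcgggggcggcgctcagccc
Vcl, chr14:20929148-20929230, plus strand: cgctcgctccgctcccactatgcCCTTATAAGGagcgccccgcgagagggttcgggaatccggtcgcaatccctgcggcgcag
Fhl2, chr1:43163962-43164022, minus strand: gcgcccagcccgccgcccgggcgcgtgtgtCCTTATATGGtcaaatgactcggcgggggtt
Fhl2, chr1:43196798-43196887, minus strand: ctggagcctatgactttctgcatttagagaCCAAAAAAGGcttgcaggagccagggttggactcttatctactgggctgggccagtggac
Actc1, chr2:114052876-114052952, minus strand: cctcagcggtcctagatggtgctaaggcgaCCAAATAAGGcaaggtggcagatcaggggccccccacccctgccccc

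The Srf boxes begin 82 and 62 bases before the start, and those of Actg1, Cnn2 and Fhl1 begin 90, 56 and 102 bases before it. Fhl1 has 2 windows, and the other one held no box. Cnn2 and Vcl carry the same 10 letters, at 56 and 227 bases before the start. Among measured genes with a window, 2 of 15 that rose had a box, 1 of 4 that fell and 5 of 13 that did not pass. These counts were given no test. The level of Actc1 was dim, and the unmeasured Filip1l had a box as well.

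Genes of smooth muscle type rose most. This group of 11 covers the muscle actins Actg2, Acta2 and Actc1, the actin-binding proteins Tagln, Cnn1, Cald1, Lmod1, Tpm1 and Tpm2, and the myosin regulators Myl9 and Mylk. Of the 11, 8 rose, 2 fell and 1 did not pass, with a median change of 0.64. The shares that rose and fell were 72.7% and 18.2%, against 20.8% and 20.1% of all genes. With every gene centred on its own 6-array mean, the group's median was -0.31, -0.30 and -0.32 in the 3 controls and 0.34, 0.30 and 0.32 in the 3 starved arrays, so that no single array carried the difference. Without the probe sets whose names mark them as able to match several transcripts, 5 of 10 rose, against 2030 of all 10529 genes then measured.

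Actg2 encodes the gamma actin of enteric smooth muscle. Its levels were 6.38, 6.59 and 6.92 in control and 9.30, 9.15 and 9.26 in starved cells. The controls were uneven, with replicate 3 the highest, yet the lowest starved array stood far above it. The rise was 2.61 ± 0.13 (adjusted p = 5.88e-06), the fourth largest of all genes by rank, and 0.0888% of genes had a larger change in either direction. Actg2 was measured by 1 probe set, whose suffix marks probes shared by transcripts of the gene, so its value without such probe sets could not be had.

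Acta2 encodes the alpha actin of vascular smooth muscle, the usual marker of contractile fibroblasts. It was at 13.10, 13.13 and 13.11 in control and at 13.78, 13.73 and 13.75 in starved cells. The 3 values of each group lay within 0.05 of each other, and the rise was 0.64 ± 0.05 (adjusted p = 5.09e-05), 1.56-fold. This probe set can match several transcripts, and the second Acta2 probe set, which carries no such suffix, was dim (4.13 and 4.26) and differed by 0.13 ± 0.09 (adjusted p = 0.320). Whether part of the signal of the brighter probe set came from other actin transcripts was not tested. Actc1, the cardiac alpha actin, was dim in both groups (4.07 and 4.21).

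Tagln encodes transgelin (SM22), an actin-binding protein of smooth muscle. It was at 10.37, 10.35 and 10.61 in control and 12.29, 12.37 and 12.34 in starved cells, with the groups far apart. The rise was 1.89 ± 0.08 (adjusted p = 3.70e-06), which 0.363% of genes exceeded in size. Cnn1, calponin of smooth muscle, went from 4.87, 4.86 and 4.95 to 5.70, 5.63 and 5.83. It rose by 0.82 ± 0.07 (adjusted p = 6.05e-05) from a dim control level, so the size of its change is less certain.

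Light chain and kinase of smooth muscle myosin changed in opposite directions. Myl9 encodes the regulatory light chain, and Mylk the kinase that phosphorylates it to start contraction. Myl9 was at 10.23, 10.25 and 10.40 in control and 11.36, 11.26 and 11.35 in starved cells, a rise of 1.03 ± 0.07 (adjusted p = 2.04e-05). Mylk was at 8.59, 8.55 and 8.66 in control and 7.37, 7.37 and 7.34 in starved cells. Every starved array was below every control, and the fall was 1.24 ± 0.06 (adjusted p = 4.44e-06). Its second probe set fell as well (-1.11 ± 0.09, adjusted p = 4.89e-05), and the third, which was dim, differed by -0.17 ± 0.11.

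**Figure D2:**
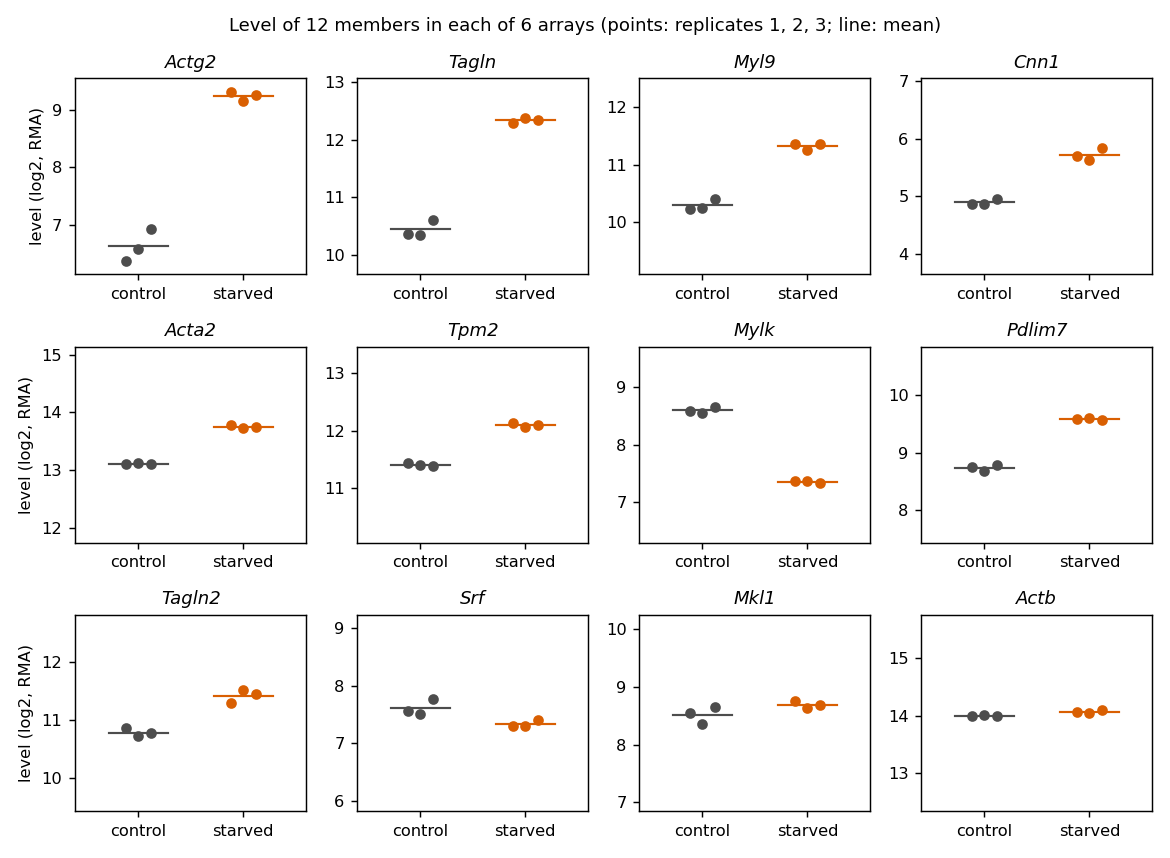
Level (log2, RMA) of 12 genes in each array, with points for replicates 1, 2 and 3 of the control and starved groups and a line at each mean; every panel spans the same number of log2 units, but levels are not comparable between panels. Actg2, Tagln and Myl9 are higher in all starved arrays, Mylk and Srf are lower, and the groups of Mkl1 overlap.

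Tropomyosins wind along actin filaments and govern the access of myosin, and caldesmon, encoded by Cald1, binds both. Tpm2 was at 11.44, 11.40 and 11.38 in control and 12.13, 12.06 and 12.10 in starved cells, a rise of 0.69 ± 0.05 (adjusted p = 4.52e-05), and all 4 of its probe sets rose. Cald1 rose by 0.34 ± 0.06 (adjusted p = 0.00329) in its brightest probe set and by 0.64 ± 0.09 and 0.60 ± 0.08 in the other probe sets. Lmod1, leiomodin of smooth muscle, which starts new filaments, fell from 6.44 ± 0.03 to 6.11 ± 0.13 (SD), by 0.33 ± 0.07 (adjusted p = 0.00860). It thus went the other way from most of its group, as Mylk did.

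Tpm1 and Tpm3 each had a probe set whose change was larger than that of the brightest. The brightest Tpm1 probe set was at 12.41, 12.42 and 12.45 in control and 12.58, 12.59 and 12.58 in starved cells, a rise of 0.15 ± 0.05 (adjusted p = 0.0429). That call was lost on leaving out any array (adjusted p up to 0.110), in the fit blocked on replicate number (0.0966), with arrays centred on their medians (0.0576) and without probe sets that may match several transcripts (0.0562), within a range of 8.06e-05 to 0.110 over all alternatives. Another Tpm1 probe set, singled out after its values were seen, rose from 5.78, 5.82 and 5.69 to 6.92, 7.00 and 6.77, by 1.14 ± 0.07 (adjusted p = 2.00e-05). For Tpm3 the brightest probe set rose by 0.29 ± 0.06 (adjusted p = 0.00444), while another, also singled out after its values were seen, rose from 5.16, 5.09 and 5.09 to 6.36, 6.11 and 6.31, by 1.15 ± 0.07 (adjusted p = 2.00e-05). The Tpm3 call was lost without probe sets that may match several transcripts (0.19, adjusted p = 0.460, within a range of 6.95e-06 to 0.460). The changes differed by 0.98 between the Tpm1 probe sets and by 0.85 between the Tpm3 probe sets, which is a description with no test, since these pairs were picked for their difference. The sources used here do not say which transcripts of a gene each probe set measures.

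Counted by probe set, 37 of the 74 rose and 11 fell, 64.9% in all, against 39.5% of the 22626 tested. On the list, 19 genes had more than 1 probe set. In 8 of them all probe sets passed in the same direction, in 4 none passed, in 7 some passed and others did not, and in 0 did probe sets pass in opposite directions. All 6 probe sets of Cnn3 fell, by 0.26 to 0.52, and all 4 of Myh9 rose, by 0.25 to 0.47. Brightness did not separate the calls in the mixed genes: the probe set of Mylk that did not pass was dim, whereas for Cfl1 the brighter probe set (12.42 in control) did not pass and the other (9.70) did.

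**Figure D3:**
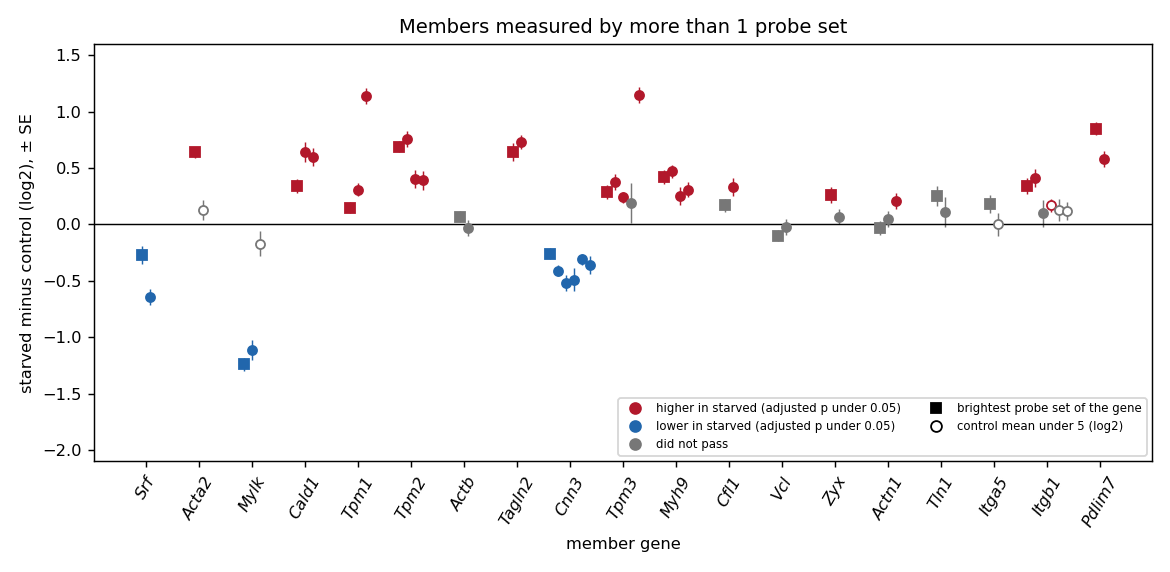
Change (starved minus control, log2, with standard error) of every probe set of the 19 genes that have more than 1; squares mark the brightest probe set of a gene, open symbols a control mean under 5. The 6 Cnn3 and 4 Myh9 probe sets lie together, while single probe sets of Tpm1 and Tpm3 stand at 1.14 and 1.15, above the others of their gene.

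General actin genes are expressed in most cells. Of 10 measured, 3 rose (30.0%), 1 fell and 6 did not pass, and their median change was 0.13, against -0.01 over all genes. The share called in either direction was close to the 40.8% of all genes. With an intensity trend and robust moderation 7 of 10 rose, against 2855 of all 12393 genes higher (44.9% called in either direction). Without moderation 5 of 10 rose, against 2337 of 12393 higher (36.6% called in either direction). With dim probe sets left out 5 of 10 rose, against 2759 of the remaining 8885 genes higher (60.2% called in either direction). Actb, the cytoplasmic beta actin, was at 14.00, 14.01 and 14.00 in control and 14.07, 14.04 and 14.10 in starved cells. Those groups did not overlap, but the difference of 0.07 ± 0.05 did not pass (adjusted p = 0.348), and it turned to -0.03 in the other Actb probe set. The 3 Affymetrix control probe sets for Actb, which were not tested, each differed by 0.08. Actg1, the cytoplasmic gamma actin, was at 13.76, 13.80 and 13.78 in control and 13.79, 13.78 and 13.81 in starved cells, with overlapping groups and a difference of 0.02 ± 0.05.

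Tagln2, the transgelin of non-muscle cells, was at 10.86, 10.72 and 10.77 in control and 11.30, 11.53 and 11.45 in starved cells. It rose by 0.64 ± 0.08 (adjusted p = 0.000338), 1.56-fold, in arrays that did not overlap. Myh9, the heavy chain of non-muscle myosin IIA, rose by 0.42 ± 0.06 (adjusted p = 0.000792). The single gene of this group that fell was Cnn3, the acidic calponin, from 12.99 ± 0.04 to 12.73 ± 0.04 (SD), by 0.26 ± 0.05 (adjusted p = 0.00598). Calponins thus differed among themselves: Cnn1 rose, Cnn3 fell, and Cnn2 differed by 0.11 ± 0.05 (adjusted p = 0.129). Tpm4, the filament-severing protein gene Cfl1 (cofilin) and the profilin gene Pfn1 differed by 0.15 ± 0.06, 0.17 ± 0.06 and 0.04 ± 0.06 and did not pass. The second Cfl1 probe set did, with 0.33 ± 0.08 (adjusted p = 0.0105).

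Adhesion and crosslinking genes encode the proteins that tie filaments to each other and to the matrix. Of 9 measured, 4 rose, 0 fell and 5 did not pass, with a median change of 0.25. The share called was 44.4%, close to the 40.8% of all genes (20.8% higher and 20.1% lower). The rises were those of Actn4, a crosslinking alpha-actinin (0.46 ± 0.06, adjusted p = 0.000469), and Flna, which encodes filamin A (0.42 ± 0.06, adjusted p = 0.000981). Itgb1, the beta1 integrin shared by most matrix receptors, rose by 0.34 ± 0.07 (adjusted p = 0.00449) in its brightest probe set. Of its other probe sets, those that differed by 0.41 ± 0.08 and, with a dim level, by 0.17 ± 0.06 passed. Those that differed by 0.10 ± 0.12 and, with dim levels, by 0.13 ± 0.10 and 0.12 ± 0.08 did not. Zyx, the zyxin of focal adhesions, rose by 0.26 ± 0.07 (adjusted p = 0.0184). The Zyx call was lost without control replicate 1 (0.0520), control replicate 2 (0.0627) or starved replicate 3 (0.0665). It was also lost without moderation (0.0501), within a range of 0.000915 to 0.0665 over all alternatives. The second Zyx probe set differed by 0.07 ± 0.07 and did not pass (adjusted p = 0.427). Actn1, the other alpha-actinin of non-muscle cells, was at 11.52, 11.48 and 11.58 in control and 11.54, 11.52 and 11.44 in starved cells. Its groups overlapped, and the difference was -0.03 ± 0.06. The second Actn1 probe set differed by 0.05 ± 0.07 without passing, and the third rose by 0.21 ± 0.07 (adjusted p = 0.0471). Vcl (vinculin), Tln1 (talin), Ilk (integrin-linked kinase) and Itga5 (alpha5 integrin) differed by -0.10 ± 0.05, 0.25 ± 0.09, 0.09 ± 0.07 and 0.18 ± 0.08, and none of them passed. Tln1 and Itga5 passed without control replicate 3 (adjusted p = 0.0431 and 0.0355).

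The remaining group holds LIM domain proteins, adaptors that shuttle between adhesions, filaments and the nucleus. Of 4 measured, 3 rose (75%, against 20.8% of all genes) and 1 did not pass. Pdlim7 (enigma) was at 8.76, 8.68 and 8.78 in control and 9.59, 9.60 and 9.57 in starved cells. The groups stood well apart, with a rise of 0.85 ± 0.06 (adjusted p = 2.03e-05), and the second probe set rose by 0.58 ± 0.07. Fhl1, with a CArG box at 1 of its 2 starts, was at 9.83, 9.82 and 9.92 in control and 10.21, 10.24 and 10.24 in starved cells. It rose by 0.37 ± 0.05 (adjusted p = 0.00111). Tgfb1i1 (Hic-5), a partner of focal adhesions, rose by 0.34 ± 0.06 (adjusted p = 0.00312). Fhl2, with a CArG box at both of its starts, was at 9.62, 9.60 and 9.66 in control and 9.50, 9.40 and 9.66 in starved cells, with overlapping groups. Its change of -0.10 ± 0.08 missed the threshold (adjusted p = 0.342).

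Other genes of the pathway were read from 4 further lists of 52 genes, of which 44 were measured. Of these 44, 15 rose and 8 fell (34.1% and 18.2%, against 20.8% and 20.1% of all genes), with a median change of 0.03. Without probe sets that may match several transcripts, 5 of 37 fell, against 2017 of all 10529 genes then measured. Among 5 SRF cofactors 2 rose and 1 fell (40% and 20%). Elk4, a ternary complex factor that binds beside SRF, rose by 0.51 ± 0.06 (adjusted p = 0.000282) in its brightest probe set, but the other probe sets differed by -0.16 ± 0.10 and 0.13 ± 0.11 without passing, so its direction rests on 1 probe set. Elk3, a relative of Elk4, fell by 0.41 ± 0.06 (adjusted p = 0.00113), and its other probe sets fell by 0.80 ± 0.07 and 0.99 ± 0.07. Elk1 rose by 0.26 ± 0.07 (adjusted p = 0.0223), a call lost without control replicate 2 (0.0756), control replicate 3 (0.0550) or starved replicate 1 (0.0683).

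Genes for monomer binding and filament turnover rose in 5 and fell in 1 of 13 (38.5% and 7.69%, against 20.8% and 20.1% of all genes). Twf2 (twinfilin) fell by 0.62 ± 0.07 (adjusted p = 3.00e-04), and Dstn (destrin) rose by 0.33 ± 0.06 (adjusted p = 0.00322). Pfn2, a profilin gene, rose by 0.26 ± 0.05 (adjusted p = 0.00526) in its brightest probe set, but its other probe sets (0.19 ± 0.07 and 0.11 ± 0.09) did not pass. Without probe sets that may match several transcripts its call was lost (adjusted p = 0.0821). Of 6 genes of the Arp2/3 complex, which branches filaments, 2 rose and 2 fell (33.3% each, against the same 20.8% and 20.1%). Arpc5l (0.33 ± 0.06) and Arpc2 (0.28 ± 0.05) rose. Arpc5 (-0.38 ± 0.06) and Arpc1a (-0.32 ± 0.07) fell, so the called genes of the complex went both ways.

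Of 20 other muscle and SRF target genes, 6 rose and 4 fell (30% and 20%, against 20.8% and 20.1% of all genes), with a median of -0.09. Ankrd1, a muscle ankyrin repeat gene, was at 6.49, 6.76 and 6.94 in control and 8.23, 8.14 and 8.26 in starved cells. It rose by 1.48 ± 0.11 (adjusted p = 3.55e-05), and its second probe set by 1.44 ± 0.13. Acta1, the skeletal alpha actin, rose by 0.71 ± 0.20 (adjusted p = 0.0248) from 5.53 ± 0.38 to 6.24 ± 0.29 (SD), a call lost without control replicate 1 (0.0596), control replicate 3 (0.0610), starved replicate 1 (0.0858) or starved replicate 3 (0.0637). Fblim1, a filamin-binding LIM protein gene, fell by 0.84 ± 0.06 (adjusted p = 3.33e-05) in the brighter and by 0.70 ± 0.05 in the other probe set.

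**Figure D4:**
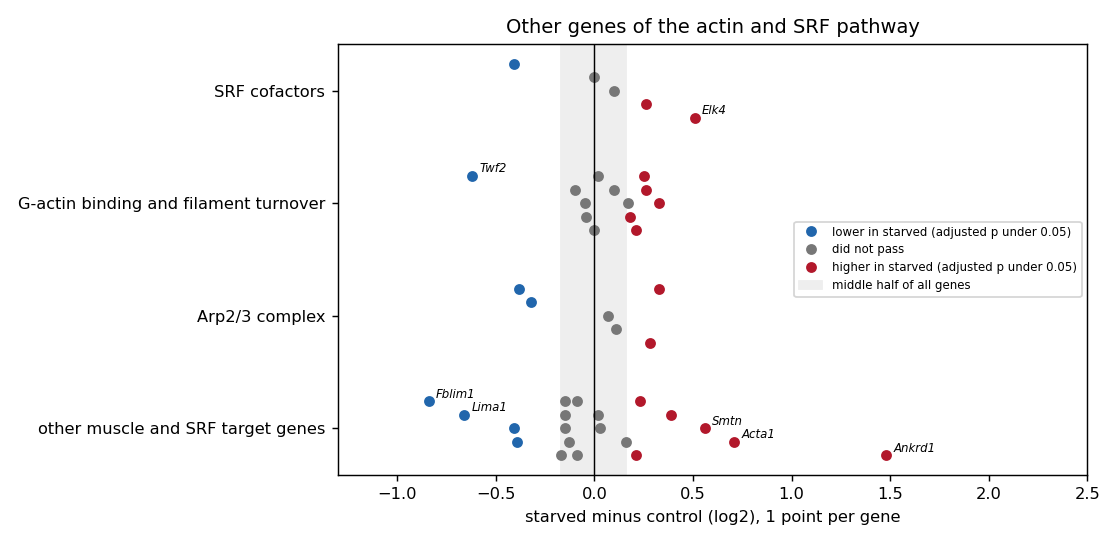
Change (starved minus control, log2) of each of the 44 further pathway genes measured, by list; red and blue mark genes past an adjusted p of 0.05, the grey band holds the middle 50% of all genes, and genes that changed by at least 0.5 are named. Ankrd1 stands highest at 1.48 and Fblim1 lowest at -0.84, and every list holds genes on both sides of 0.

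Markers of other cells were read beside the smooth muscle genes. For comparison with the counts below, 20.8% of all genes rose and 20.1% fell. Of 9 markers of pericytes and smooth muscle, 4 rose (Smtn, Rgs5, Cspg4 and Notch3, by 0.41 to 0.56) and 0 fell, and Myh11, Kcnj8, Abcc9 and Myocd were dim in both groups. The mean level of this list was 5.48 to 5.53 in the control arrays and 5.66 to 5.74 in the starved arrays. Of 18 striated muscle markers, 15 were dim in both groups, 2 rose (Acta1 and the dim Tnnt2) and the list's mean level was 3.92 to 4.02 in control and 4.01 to 4.03 in starved arrays. Leukocyte, endothelial and epithelial markers rose in 2 of 8, 1 of 6 and 1 of 6, and 1 leukocyte marker fell (Cd14, -0.32 ± 0.06). These lists had mean levels of 5.10 to 5.32, 3.73 to 3.85 and 4.05 to 4.18 in control and 5.20 to 5.23, 3.68 to 3.97 and 4.23 to 4.25 in starved arrays. Fibroblast markers rose in 5 and fell in 4 of 14. The largest fall among them was that of Lum (-2.05 ± 0.06, adjusted p = 1.57e-06), followed by Pdgfrb (-0.81 ± 0.07). The largest rise was that of Col1a1 (0.57 ± 0.06). The mean level of the fibroblast list was 11.57 to 11.60 in control and 11.52 to 11.53 in starved arrays. The part of these shifts in the rise of the contractile genes was not tested.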

How the data were processed

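The deposited values are on the log2 scale, and per the submitters' processing notes the authors used affy and RMA, for which no version is named. Because RMA gives the probe intensities of all arrays the same distribution before they are summarised, a change shared by most transcripts cannot be seen. Of 22690 probe sets with 0 missing values, 64 control probe sets were set aside. Precision is limited by the number of arrays.

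The groups were tested in R 4.3.3 using limma 3.58.1 (lmFit, eBayes, no covariate, two-sided, Benjamini-Hochberg over 22626 probe sets), a fit tested on simulated data. Older symbols were matched through RefSeq synonyms. CArG boxes were searched in RefSeq windows with Python 3.11.15, and figures drawn with matplotlib 3.10.9.

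The genes and lists were chosen with earlier results of these data known. All 38 genes are named, with values per array for those called and changed by at least 0.5, for Srf and Mkl1, and for the brightest of each role group; of each further list the rule allows 3 called genes by size of change and 2 more by level. Per-array values of some other genes were added. A further list of pathway genes is not reported here and is left out of the counts. Alternatives were a filter on dim probe sets, 2 other scalings, 2 other moderations, array weights, dropping probe sets that may match several transcripts, gene means, a stricter threshold (0.01), a block on replicate number and leaving out each array in turn. Scan dates were not used here, and any batch aligned with the groups cannot be told apart from them.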

Additional observations from a re-analysis of the deposited data

How the results depend on the processing

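Across 16 alternatives, 17 of the 22 called genes kept direction and call wherever they were measured, and 5 lost the call under at least 1 of them (Srf, Acta2, Tpm1, Tpm3 and Zyx). With probe sets able to match several transcripts left out, 5 of 10 smooth muscle genes rose, Acta2 (0.13, adjusted p = 0.336, range 1.29e-12 to 0.336) and Tpm3 (0.19, adjusted p = 0.460, range 6.95e-06 to 0.460) did not pass, Actb turned to -0.03, Elk4 turned to -0.16, and 5 of 37 further pathway genes fell. General actin genes that rose numbered 5 without dim probe sets, 7 with an intensity trend and robust moderation and 5 without moderation, against 3. Of the 14 genes not called, 8 passed under at least 1 alternative, and the matching share over all genes was not counted. Some alternatives called more of all genes. The share was 60.2% without dim probe sets and 44.9% with an intensity trend and robust moderation, against 40.8%. Actg1 was at 0.00 with arrays centred on their medians, and Actn1 was at 0.08 with the mean of all probe sets and between -0.05 and 0.00 on leaving out each array (0.00 without control replicate 3 or starved replicate 3). Leaving out each array gave 16 to 19 rises and 3 to 4 falls among the 36 genes. In the same fits 2222 to 2486 of all 12393 genes rose and 2111 to 2269 fell. No pairing by replicate number was seen, but 3 arrays per group are too few to detect a weak one. Deviations of same-numbered arrays correlated at -0.0944, 0.0148 and -0.00833, and 1 of 6 arrays correlated best with its own number. With the number as a block 17 genes rose and 4 fell, and 4624 of all genes passed against 5059.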
